A study of Homo sapiens with 24 samples.

Results

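Messenger RNA of engineered human embryonic stem cells, sorted as mCherry-positive cells from illuminated co-cultures, was compared with that of the GFP-positive wild-type neighbours sorted from the same kind of culture. The 6 libraries (3 of mCherry light and 3 of GFP light) were taken by their sample labels from the 24 libraries of the series, and no measured value entered the choice. The series sequenced poly-adenylated RNA of the established embryonic stem cell line H9 in 8 groups of 3 biological replicates. The engineered cells (optoWnt) carry a fusion of the photoreceptor Cry2 with the intracellular part of the Wnt co-receptor LRP6, followed by mCherry, together with a puromycin resistance gene. The wild-type cells carry eGFP and a neomycin resistance gene and no fusion. Both grew in E8 medium, and illuminated cultures received light at 0.8 µW/mm2 for 48 h. Also used here for contrast are the mCherry dark and GFP dark groups, sorted from co-cultures of the same kind kept unlit. Illuminated monocultures of Cry2 cells and of wt cells are used likewise, with 3 libraries in each group. Each biological replicate pooled the cells of several wells, and the labels do not say whether the engineered line was 1 clone. The comparison addresses how cells with light-driven Wnt signalling differ from cells without the fusion that share their dish.

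In the canonical Wnt pathway, a ligand brings a Frizzled receptor and LRP5 or LRP6 together, the complex that degrades beta-catenin is disabled, and beta-catenin enters the nucleus to act with TCF and LEF factors. Cry2 clusters under blue light, and clustering of the LRP6 tail can start the same cascade with no ligand. In the embryo, canonical Wnt signalling acts with NODAL and BMP signals to form the primitive streak, where epithelial cells lose E-cadherin, leave the sheet and become mesoderm or endoderm.

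Construct transcripts followed the labels in all 6 libraries. The fusion had 52164, 57703 and 61394 normalised reads in the mCherry light libraries, against 422, 358 and 408 in the GFP light libraries. A normalised read is a read count divided by its library's size factor. Illuminated wt monocultures, which held no engineered cells, had 310.1, 219 and 286 normalised reads on the same fusion feature. The puromycin gene had 1978, 3392 and 4199 normalised reads in mCherry light and 3.01, 1.88 and 0 in GFP light, so the GFP light mean was 0.0511% of the mCherry light mean. For eGFP the libraries held 29.8, 14.6 and 25.6 normalised reads in mCherry light and 11980.1, 13332 and 14466 in GFP light, the mCherry light mean being 0.176% of the other. In mCherry dark cells eGFP was lower still, at 3.42, 5.58 and 5.54 normalised reads. The neomycin gene, with 0, 1.62 and 1.5 normalised reads in mCherry light and 629, 709 and 713 in GFP light, followed eGFP. LRP6 had 15103 ± 594 normalised reads in mCherry light and 3369.7 ± 432 in GFP light (SD, n = 3 each), a log2 difference of 2.17, but it shares sequence with the fusion and its own level is uncertain. For the construct features and for LRP6, the exact two-sided permutation test gave p = 0.1, the smallest that 3 libraries against 3 allow.

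The 6 libraries held 31807414 to 55593196 reads assigned to genes. Library c was the shallowest in both groups. Within mCherry light, 1.41% of well-measured genes lay 2-fold apart between libraries a and b, 3.80% between a and c and 0.893% between b and c. Within GFP light these shares were 0.706%, 1.48% and 0.502%, so library a was the furthest from the others in both groups. Summed over 7 marker genes of the primitive streak and mesoderm, the mCherry light libraries held 126825 to 151743 normalised reads and the GFP light libraries 656 to 716. All 7 of these markers were higher in mCherry light. For 6 pluripotency markers the sums were 72919 to 89238 in mCherry light and 253071 to 270135 in GFP light, with all 6 lower in mCherry light. Markers of other cell types had low sums in both groups. The 4 endoderm markers summed to 38.0 to 63.2 normalised reads in mCherry light and 52.5 to 79.7 in GFP light (0 higher and 2 lower of 3 tested, SOX17 at 0 in GFP light). Amnion markers summed to 96.4 to 117 in mCherry light and 132 to 191 in GFP light (0 higher and 2 lower of 3 tested). Nearly all of the mCherry light sum was GATA3, which averaged 106 there and 62.5 in GFP light and did not pass the threshold. Neural markers summed to 163 to 184 in mCherry light, nearly all of it LHX2, and to 21.7 to 24.8 in GFP light (PAX6 and SIX3 at 0 in mCherry light). Endothelial and blood markers summed to 21.1 to 51.8 in mCherry light and 64.7 to 73.5 in GFP light (0 higher and 1 lower of 2 tested). The part of other cell types and of depth in the results was not tested. In bulk RNA, fewer cells of a type and less RNA per cell cannot be told apart.

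Across 19436 genes, 5200 (26.8%) were higher and 5358 (27.6%) lower in mCherry light than in GFP light at an adjusted p under 0.05 in limma. Of the same genes, 2103 (10.8%) were higher and 3194 (16.4%) lower by at least 2-fold as well. In 10512 genes (54.1%) the lowest library of one group lay above the highest of the other. The median log2 difference over all genes was -0.01. In a principal component analysis of the 12 co-culture libraries, the leading component carried 76.9% of the variance and placed mCherry light at 173 to 185, GFP light at -51.9 to -47.9, mCherry dark at -64.5 to -61.9 and GFP dark at -66.1 to -64.7. The next component, with 5.6% of the variance, placed GFP light at 34.4 to 55.4 and each of the other 3 groups below 0. Because 54.3% of all genes passed the threshold, each list below is read against the shares 26.8% and 27.6%.

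Feedback and target genes of the Wnt pathway were mostly higher in the engineered cells. Of 19 such genes, all tested, 14 were higher and 3 lower, with a median log2 difference of 3.44. LEF1 (chr4:108047545-108168956, minus strand on GRCh38), a nuclear partner of beta-catenin, had 14376, 14102 and 13033 normalised reads in mCherry light and 26.3, 33.9 and 37.7 in GFP light. AXIN2 (chr17:65528563-65561647, minus strand), a scaffold of the complex that degrades beta-catenin, had 7175, 7048 and 3911 normalised reads in mCherry light, against 505, 495 and 613 in GFP light. SP5 (chr2:170715351-170718078, plus strand), a zinc-finger repressor induced by Wnt, stood at 13672, 18871 and 8980.2 normalised reads in mCherry light and 119, 143 and 160.3 in GFP light. The groups did not overlap for any of these genes, and mCherry light library c was the lowest of its group for AXIN2 and SP5. The log2 differences were 8.70 ± 0.20 for LEF1 (SE, adjusted p = 4.93e-14), 3.44 ± 0.18 for AXIN2 (adjusted p = 4.35e-10) and 6.55 ± 0.57 for SP5 (adjusted p = 1.48e-07). DKK1 (chr10:52314296-52318042, plus strand), a secreted antagonist that binds LRP5 and LRP6, had 63147, 66776 and 31612 normalised reads in mCherry light and 6.01, 8.48 and 21.6 in GFP light. It was 4481-fold higher in the mCherry light mean (adjusted p = 8.79e-11), with library c again the lowest of its group. LGR5, a receptor for R-spondins, averaged 5457 ± 1749 normalised reads in mCherry light and 2.83 ± 2.12 in GFP light. NKD1, an inhibitor that binds Dishevelled, averaged 56685 ± 1960.1 in mCherry light and 638 ± 6.47 in GFP light (SD, n = 3 each). DKK4, another antagonist of the DKK family, averaged 1424 ± 98.01 normalised reads in mCherry light and was represented by 1 read over the 3 GFP light libraries. The 3 feedback genes that were lower all encode secreted Wnt-binding inhibitors. SFRP2 had 2257, 2644 and 2554 normalised reads in mCherry light and 26289, 29843 and 31885 in GFP light, WIF1 averaged 5.31 ± 2.40 in mCherry light and 70.0 ± 3.98 in GFP light, and SFRP1 differed by -1.25 on the log2 scale. ZNRF3, a ubiquitin ligase that removes Frizzled receptors, was higher by 0.36, while its relative RNF43 (0.21) and the NKD1 relative NKD2 (-0.05) did not pass the threshold.

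The 250 bases before the annotated start are shown for 3 of the genes that were higher, because each holds the binding letters of TCF and LEF factors. The windows come from RefSeq on GRCh38.p14, the genes were chosen after the matches were seen, and capitals mark CTTTGAA or CTTTGAT on either strand. The SP5 window (chr2:170715087-170715336, plus strand) holds 3 matches, the DKK1 window (chr10:52314031-52314280, plus strand) 1 and the MIXL1 window (chr1:226223414-226223663, plus strand) 1.
SP5: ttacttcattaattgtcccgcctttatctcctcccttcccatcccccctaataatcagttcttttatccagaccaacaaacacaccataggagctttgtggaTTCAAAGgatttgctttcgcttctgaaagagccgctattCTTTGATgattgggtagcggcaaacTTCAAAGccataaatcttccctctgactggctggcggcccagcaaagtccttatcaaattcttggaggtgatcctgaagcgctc
DKK1: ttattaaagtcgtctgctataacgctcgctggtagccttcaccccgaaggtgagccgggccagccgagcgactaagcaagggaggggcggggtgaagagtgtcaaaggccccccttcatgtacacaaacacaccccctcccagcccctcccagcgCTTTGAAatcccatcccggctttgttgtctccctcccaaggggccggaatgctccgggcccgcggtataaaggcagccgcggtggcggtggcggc
MIXL1: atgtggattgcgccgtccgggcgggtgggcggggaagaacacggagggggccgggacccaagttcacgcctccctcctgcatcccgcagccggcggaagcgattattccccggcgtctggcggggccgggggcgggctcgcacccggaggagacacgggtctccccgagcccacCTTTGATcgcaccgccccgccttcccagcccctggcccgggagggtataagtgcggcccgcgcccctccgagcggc
The SP5 matches begin 148, 109 and 84 bases before the start, the DKK1 match 95 and the MIXL1 match 76. Of all 35116 windows of this length in the table, 5.94% hold this motif. The share was 5.54% among 2131 windows of genes at least 2-fold higher in mCherry light, 4.24% among 2995 windows of genes at least 2-fold lower and 3.95% among 18806 windows of all tested genes. On the Wnt feedback list, 3 of 15 windows held it. A match of letters is a description and shows no binding.

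Wnt ligand transcripts were mostly higher in the engineered cells as well: of 10 ligand genes tested, 8 were higher and 2 lower, with a median log2 difference of 4.64. WNT3A, a ligand of the canonical pathway, had 2529, 3644 and 3945 normalised reads in mCherry light and 17.3, 17.9 and 2.69 in GFP light. WNT5A, which is known for pathways that do not use beta-catenin, had 26779, 20148 and 18263 in mCherry light and 155, 119 and 82.2 in GFP light. WNT3 differed far less, with 2801, 3086 and 3457 normalised reads in mCherry light and 1098, 1146 and 947 in GFP light. The groups did not overlap for these 3 ligands. Their log2 differences were 8.26 for WNT3A (adjusted p = 5.11e-09), 7.53 for WNT5A (adjusted p = 6.09e-13) and 1.55 for WNT3 (adjusted p = 2.74e-08). WNT8A (7.54) and WNT5B (5.23) were higher too. WNT7B (-2.75) and WNT2B (-0.92) were lower, both with few reads, and WNT10B was below the filter. WNT2B lost its call under 10 alternatives. Among 14 receptor genes, 8 were higher and 5 lower, with a median of 0.54. Relatives within a family took opposite directions. FZD10 averaged 5398 ± 1667 normalised reads in mCherry light and 100.4 ± 16.2 in GFP light, while FZD5, another Frizzled receptor, averaged 55.9 ± 9.75 in mCherry light and 6009 ± 302 in GFP light. ROR2, a tyrosine kinase receptor for WNT5A, averaged 7092 ± 1216 normalised reads in mCherry light and 468 ± 83.0 in GFP light. ROR1, its close relative, averaged 93.8 ± 8.34 in mCherry light and 3691 ± 159 in GFP light (SD, n = 3 each). The log2 differences were 5.69 and -6.74 for the Frizzled pair and 3.92 and -5.29 for the ROR pair. Of 12 planar polarity genes, 7 were higher and 2 lower, the extremes being PTK7 (2.09) and PRICKLE1 (2.08) above and CELSR2 (-3.51) below.

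Primitive streak genes separated the populations by wide margins. Of 13 genes tested on this list, 10 were higher and 2 lower, with a median log2 difference of 6.96. TBXT (chr6:166157656-166168700, minus strand), the T-box factor that marks the streak, had 28033, 29884 and 25382 normalised reads in mCherry light and 108, 114 and 135 in GFP light. MIXL1 (chr1:226223618-226227054, plus strand), a homeobox factor of the streak, had 71296, 71141 and 58863 in mCherry light and 156, 143 and 171 in GFP light. EOMES (chr3:27715949-27722711, minus strand), a T-box factor of the early streak and endoderm, had 5912, 6294 and 5153 in mCherry light and 253, 271 and 207 in GFP light. No library of one group reached the range of the other for these 3 genes. The mCherry light means were 234-fold higher for TBXT (adjusted p = 2.18e-11), 428-fold for MIXL1 (adjusted p = 6.2e-16) and 23.7-fold for EOMES (adjusted p = 8.08e-07). EVX1, a homeobox factor of the posterior streak, averaged 10642 ± 2272 normalised reads in mCherry light and 3.22 ± 1.31 in GFP light. GATA6, a zinc-finger factor of endoderm and cardiac mesoderm, averaged 10042 ± 1045 in mCherry light and 4.69 ± 3.41 in GFP light. The 2 members that were lower were NODAL (-1.85) and FGF4 (-1.46), both of which also act in pluripotent cells. NODAL, a TGF-beta family ligand, had 252, 306 and 981 normalised reads in mCherry light, library c being the highest, and 1412, 1571 and 1602 in GFP light. Without mCherry light library c its log2 difference was -2.45. MESP2 (0.76) did not pass the threshold.

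Mesoderm factors that follow the streak were higher as a group in the engineered cells. Of 15 paraxial and posterior mesoderm genes tested, 13 were higher and 2 lower, with a median log2 difference of 9.54. MSGN1, a factor of presomitic mesoderm, had 10264, 12318 and 10002 normalised reads in mCherry light and 1.5, 0 and 2.69 in GFP light. Its log2 difference of 12.33 ± 0.48 (adjusted p = 1.59e-11) was the largest of all genes that the naming rule admits. TBX6, another presomitic factor, averaged 16956 ± 1477 normalised reads in mCherry light and 146 ± 20.5 in GFP light. Early HOX genes, which assign position along the body axis, went with them. HOXB2 averaged 4785 ± 584 normalised reads in mCherry light, with 2 reads over the GFP light libraries. HOXB4 had 2056, 2443 and 2286 normalised reads in mCherry light and none in GFP light, at least 2363-fold higher against a floor of 3 reads over the group. CDX1 (10.08) and CDX2 (9.54), homeobox factors that regulate HOX genes, were higher, as was HES7 (9.03), a factor of the segmentation clock. CDX4 (-1.24) and CYP26A1 (-0.63), an enzyme that breaks down retinoic acid, were lower, and both lost the call under 6 alternatives. Of 12 lateral and cardiac mesoderm genes tested, 9 were higher and 2 lower, with a median of 6.86. GATA4 (9.85), TBX3 (9.59) and HAND1 (9.17), transcription factors of the developing heart, and FOXC1 (9.45), a forkhead factor of mesoderm, led them, and TNNT2 (-4.49), a cardiac troponin, and KDR (-0.65), a VEGF receptor, were lower. Of 6 genes tested on the definitive endoderm list, 2 were higher and 3 lower. The chemokine receptor CXCR4 (7.83) and PRDM1 (2.55) were higher, FOXA2 (-1.68) and KIT (-4.13) were among the lower ones, and SOX17 was below the filter. CXCR4, PRDM1 and KIT are not specific to endoderm, and FOXA2 lost its call under 3 alternatives. Of 6 amnion genes tested, 2 were higher and 3 lower, all of them by at least 2-fold. GABRP (-4.93) and KRT7 (-4.85) were among the lower ones and do not stand for the list. Of 9 neural genes tested, 5 were higher and 4 lower. LHX2 (3.24) stood above, and POU3F1 (-6.82) and SOX3 (-5.42) below.

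Pluripotency genes were lower in the engineered cells, to very different degrees. Of 14 genes tested, 13 were lower and 1 higher, with a median log2 difference of -2.71. SOX2 (chr3:181711924-181714436, plus strand), a core factor of pluripotent and neural cells, had 42.1, 51.0 and 55.7 normalised reads in mCherry light and 7439, 7436 and 7437 in GFP light. NANOG (chr12:7787794-7799141, plus strand), a homeobox factor of pluripotency, had 30.7, 27.5 and 25.6 in mCherry light and 5989, 6361 and 6229 in GFP light. POU5F1 (chr6:31164337-31180731, minus strand), the OCT4 gene, which like NANOG has near-identical pseudogenes that can share its reads, had 21416, 28244 and 30786 in mCherry light and 99298, 105164 and 116639 in GFP light. The groups were apart for each gene, but by unequal distances. SOX2 was 150.04-fold lower in mCherry light (adjusted p = 1.99e-16), NANOG 222-fold lower (adjusted p = 9.52e-17) and POU5F1 3.99-fold lower (adjusted p = 1.83e-09). LIN28A (-0.81), an RNA-binding protein that blocks let-7, was lower by less than 2-fold, and SALL4 (0.59), a zinc-finger factor, was the member that was higher. Of 7 naive pluripotency and germ cell genes tested, 1 was higher and 5 lower. DPPA3 had no read in mCherry light and averaged 45.6 ± 3.69 normalised reads in GFP light. FOXD3, a forkhead factor of pluripotent cells and neural crest, had no read in mCherry light and 435, 464 and 515 normalised reads in GFP light, at least 478-fold lower against the floor of 3 reads over the group. LEFTY2, a secreted inhibitor of NODAL, had 3.51, 0.81 and 0 normalised reads in mCherry light and 679, 711 and 713 in GFP light. Its neighbour and relative LEFTY1, with 11.4, 7.28 and 91.8 in mCherry light and 647, 684 and 695 in GFP light, was again highest in mCherry light library c. Without that library the LEFTY1 log2 difference was -6.06, and with all libraries -5.00.

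**Figure D1:**
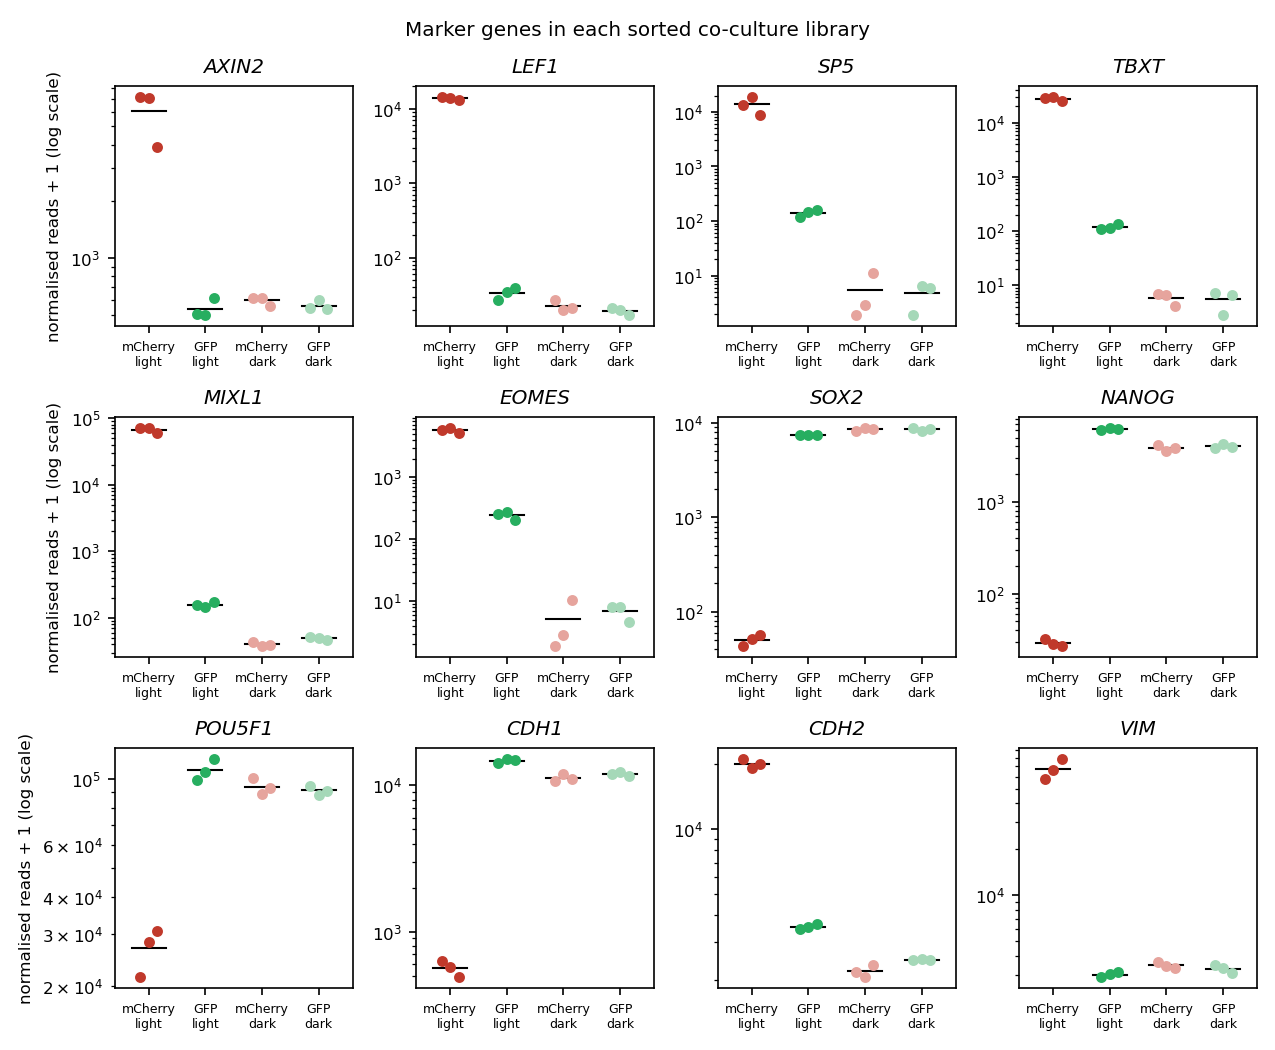
Normalised reads + 1 (log scale) of 12 genes in each sorted co-culture library, with a line at the mean of each group of 3. The mCherry light libraries stand apart from the GFP light libraries for every gene plotted. None of the 12 genes passed the threshold between mCherry dark and GFP dark, where 0.797% of all genes did.

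In the plot of 12 marker genes by library, the GFP light mean lies nearer on the log scale to the dark means than to the mCherry light mean for every gene but EOMES. For LEF1, SP5, TBXT, MIXL1, EOMES and CDH2 the GFP light mean lies above the dark means and below that of mCherry light, and for NANOG, POU5F1 and CDH1 its mean is above the dark means. SOX2 averaged 8562 normalised reads in mCherry dark and 8570.0 in GFP dark, and VIM averaged 3442 in mCherry dark and 3280.4 in GFP dark.

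Epithelial genes were lower in the engineered cells almost without exception. Of 16 epithelial regulators tested, 0 were higher and 15 lower, with a median log2 difference of -3.33, and the one that did not pass was GRHL3 (-0.27). ESRP2, a splicing factor of epithelial cells, had 63.1, 67.1 and 60.2 normalised reads in mCherry light and 2848, 2829 and 2988 in GFP light (log2 -5.49, adjusted p = 6.2e-16). CRB3, a small membrane protein that sets the apical side of the cell, had 10.5, 6.47 and 6.02 in mCherry light and 449, 554 and 437 in GFP light (log2 -5.82, adjusted p = 2.68e-12). GRHL2 (-4.24) and OVOL1 (-4.61), transcription factors that maintain epithelia, were lower too, whereas the keratins KRT8 (-0.36) and KRT19 (-0.34) differed by less than 2-fold. Of 21 tight junction and desmosome genes tested, 2 were higher and 17 lower, with a median of -1.84. CLDN3, a claudin of tight junctions, held 2 reads over the mCherry light libraries and had 368, 424 and 505 normalised reads in GFP light. MARVELD3, another tight junction protein, averaged 11.1 ± 6.97 normalised reads in mCherry light and 1328 ± 74.7 in GFP light, and OCLN (occludin) differed by -4.45 on the log2 scale. The 2 exceptions were CLDN11, with 10495, 10987 and 11045 normalised reads in mCherry light and 346, 338 and 391 in GFP light, and DSP (1.41), the desmosome protein desmoplakin. TJP1 (-0.51), JUP (-0.38) and DSG2 (-0.38) were lower by less than 2-fold, and DSC2 (0.26) and DSC3 (-0.10) did not pass.

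Promoter windows of 2 of these genes are printed because the E-box CACCTG, which zinc-finger repressors of the SNAI and ZEB families are known to bind, occurs several times in each. Capitals mark CACCTG on either strand, and the genes were again chosen after the matches were seen. The CRB3 window (chr19:6464021-6464270, plus strand) holds 5 matches and the CLDN7 window (chr17:7262479-7262728, minus strand) 4. CLDN7 has 2 windows in the table, of which the one with more matches is printed.
CRB3: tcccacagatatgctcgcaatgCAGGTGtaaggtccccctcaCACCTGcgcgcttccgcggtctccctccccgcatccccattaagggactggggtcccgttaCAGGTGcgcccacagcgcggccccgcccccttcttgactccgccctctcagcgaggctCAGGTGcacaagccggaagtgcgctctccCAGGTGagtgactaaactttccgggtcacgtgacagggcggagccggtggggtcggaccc
CLDN7: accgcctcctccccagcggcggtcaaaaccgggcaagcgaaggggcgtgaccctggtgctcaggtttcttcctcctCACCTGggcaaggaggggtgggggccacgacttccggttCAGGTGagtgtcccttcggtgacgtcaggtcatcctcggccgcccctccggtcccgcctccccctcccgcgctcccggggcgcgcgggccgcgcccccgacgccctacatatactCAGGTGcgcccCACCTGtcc
The CRB3 matches lie 228, 208, 147, 89 and 60 bases before the start and the CLDN7 matches 174, 135, 20 and 9. CLDN7 itself averaged 224 ± 52.1 normalised reads in mCherry light and 3326 ± 282 in GFP light. The motif was in 24.1% of the windows of genes at least 2-fold lower in mCherry light, 14% of those at least 2-fold higher, 16.6% of those of all tested genes and 17.5% of all windows. It was in 9 of 27 windows of the tight junction and desmosome list and in 5 of 9 windows of the epithelial regulator list. These shares are descriptions of letters in this window and carry no test.

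Transcription factors that drive the epithelial to mesenchymal transition were higher, together with mesenchymal structural genes. Of 16 genes tested, 13 were higher and 2 lower, with a median log2 difference of 3.37. SNAI1, which represses E-cadherin, had 11674, 14144 and 23439 normalised reads in mCherry light and 489, 475 and 468 in GFP light. ZEB2, a repressor of the same kind, had 5184, 4328 and 4118 in mCherry light and 5.26, 13.2 and 5.39 in GFP light. VIM (chr10:17228259-17237593, plus strand), the intermediate filament vimentin, had 57544, 66279 and 78329.8 in mCherry light and 2874, 3029 and 3100.2 in GFP light. These groups did not overlap, with log2 differences of 5.04 for SNAI1, 9.09 for ZEB2 and 4.48 for VIM (adjusted p = 1.14e-11, 9.37e-10 and 4.04e-14). SNAI2 (7.07), ZEB1 (6.07) and TWIST1 (4.63) were higher, as were the matrix genes COL3A1 (10.73), COL1A2 (2.99) and FN1 (2.46). THY1 (-1.80), a surface protein also found on embryonic stem cells, and LOX (-2.30), an enzyme that links collagen fibres, were lower.

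Cadherins, which hold like cells together, were exchanged between the populations. Of 16 cadherins tested, 9 were higher and 5 lower, with a median log2 difference of 1.08. CDH1 (chr16:68737225-68835548, plus strand), E-cadherin, had 632, 576 and 486 normalised reads in mCherry light and 14191, 15154 and 14818 in GFP light. CDH2 (chr18:27950966-28177446, minus strand), N-cadherin, had 21092, 19120.0 and 19949 in mCherry light and 3437, 3511 and 3645 in GFP light. CDH11, a cadherin of mesenchyme, had 34407, 29836 and 31720.5 in mCherry light and 491, 403 and 478 in GFP light. In all 3 genes the groups were well apart, CDH1 26.1-fold lower (adjusted p = 1.07e-14), CDH2 5.68-fold higher (adjusted p = 5.52e-13) and CDH11 69.9-fold higher (adjusted p = 2.47e-15) in mCherry light. CDH3, P-cadherin, averaged 1061 ± 98.2 normalised reads in mCherry light and 9926 ± 1059 in GFP light. CDH6, a cadherin of kidney and neural crest, had 6.14, 6.47 and 12.04 in mCherry light and 444, 401 and 352 in GFP light. CDH10 (8.27), CDH20 (6.23) and CDH12 (5.76) were higher, and CDH5 (-4.06) was lower. Among 10 non-clustered protocadherins, 7 were higher and 3 lower. PCDH19 (4.80) and PCDH1 (-5.42) marked the extremes. Of 17 nectins and immunoglobulin adhesion molecules, 6 were higher and 6 lower, which is close to the shares over all genes. NCAM1 (2.69) stood above and EPCAM (-3.40) below.

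Repulsive and attractive surface signals differed as well. Of 14 Eph receptors, tyrosine kinases that respond to ephrins on touching cells, 3 were higher and 8 lower, with a median log2 difference of -1.31. EPHA4 had 8889, 7246 and 6074 normalised reads in mCherry light and 431, 403 and 314 in GFP light, a log2 difference of 4.27 (adjusted p = 3.01e-12). EPHA1 had 1035, 1343 and 1690.1 in mCherry light and 10844, 12067 and 12199 in GFP light, a log2 difference of -3.13 (adjusted p = 2.82e-11). Of 8 ephrins, 5 were higher and 2 lower, with a median of 0.69. EFNB1 had 2418, 3083 and 4214 normalised reads in mCherry light and 593, 578 and 635 in GFP light, with no overlap, and EFNB2 (-0.76) was lower. EFNB1 was already higher in mCherry dark than in GFP dark (log2 0.93, adjusted p = 0.00602), and its lit difference exceeded the dark difference by 1.46 (adjusted p = 5.76e-05). Among 30 semaphorins, plexins and neuropilins, 11 were higher and 14 lower. The receptors PLXNA2 (33054 normalised reads in mCherry light, 212 in GFP light) and NRP1 (8968 in mCherry light, 64.0 in GFP light) led one side, and the ligands SEMA5B (-4.41), SEMA6A (-3.37) and SEMA3A (-3.05) and the receptor PLXNA4 (-3.40) the other. Of 17 Slit, Robo, netrin and UNC5 genes, 6 were higher and 5 lower. The netrin receptors were split, UNC5C (8.26) being higher and UNC5A (-4.02), UNC5D (-2.48) and UNC5B (-2.34) lower. Of 10 FLRT, latrophilin and teneurin genes, 5 were higher and 4 lower, with FLRT3 (6.28) and FLRT1 (-6.05) at opposite ends.

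**Figure D2:**
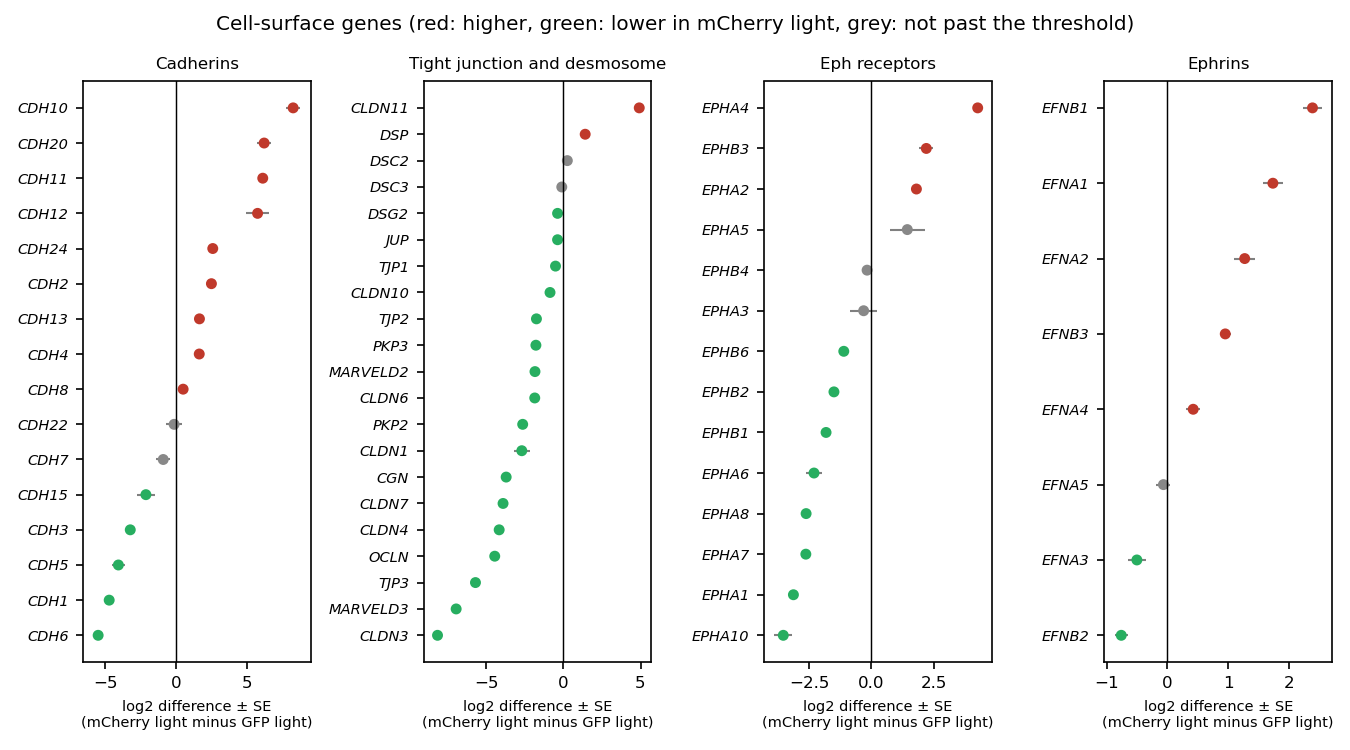
Log2 difference between mCherry light and GFP light with its SE for every tested member of 4 lists of cell-surface genes, red where higher, green where lower in mCherry light and grey where the threshold was not passed. Tight junction and desmosome genes lie mostly left of 0 (17 lower of 21), cadherins on both sides (9 higher and 5 lower of 16), Eph receptors mostly left (8 lower of 14) and ephrins mostly right (5 higher of 8).

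Ligands and receptors of 80 known pairs were then read side by side, 78 of which had both genes tested. In 19 pairs the ligand was at least 2-fold higher in one population and the receptor at least 2-fold higher in the other, and in 17 pairs both were at least 2-fold higher in the same population (12 in mCherry light and 5 in GFP light). Some genes enter several pairs, so the pairs are not independent. Over all genes tested, 10.8% were higher and 16.4% lower by at least 2-fold, and whether 19 opposite pairs exceeds what other gene pairs would give was not tested. Of the 19, the ligand was on the mCherry light side in 13 and on the GFP light side in 6. APLNR, the apelin receptor of early mesoderm, had 138072, 171840.2 and 185632 normalised reads in mCherry light and 60.1, 109 and 59.3 in GFP light. Its ligand gene APELA had 30.7, 35.6 and 28.6 in mCherry light and 917, 805 and 719 in GFP light. CXCR4, a chemokine receptor, had 11769, 13430.2 and 11433 in mCherry light and 62.4, 57.5 and 40.4 in GFP light. CXCL12, its ligand, was the reverse, with 557, 667 and 628 normalised reads in mCherry light and 3448, 3375 and 3026 in GFP light. PDGFRA, a receptor of mesenchyme, averaged 4590.4 ± 977 in mCherry light and 22.5 ± 11.4 in GFP light, and its ligand gene PDGFA averaged 168 ± 11.1 in mCherry light and 1907 ± 109 in GFP light. In each of these 3 pairs the receptor was higher in the engineered cells and the ligand in the wild-type neighbours. The log2 differences were 11.11 for APLNR and -4.64 for APELA, and 7.83 for CXCR4 and -2.41 for CXCL12. They were 7.74 for PDGFRA and -3.50 for PDGFA, each of these values past the threshold. The same held for SEMA6A (-3.37) with PLXNA2 (7.29), SEMA3A (-3.05) with NRP1 (7.14) and SPP1 (-2.94) with CD44 (2.62). The opposite arrangement, with the ligand higher in mCherry light, held for WNT5A with ROR1, WNT5B with FZD5, NTN1 (3.88) with UNC5B, FLRT3 with UNC5B and HGF (2.82) with MET (-3.01). HGF was low throughout, with 20.2, 15.4 and 25.6 normalised reads in mCherry light and 1.5, 9.42 and 0 in GFP light. Other ligand genes of APLNR and PDGFRA among the pairs, APLN (0.26) and PDGFC (-0.38), did not pass the threshold. These are transcript levels, and no contact or signal between the cells was measured.

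Other developmental pathways had members on both sides of the comparison. Of 22 BMP pathway genes, 10 were higher and 7 lower. The ligands BMP4 (17419 normalised reads in mCherry light, 275 in GFP light) and BMP2 (6.83) and the target MSX1 (9.93) were higher, while the inhibitor SMAD7 (-1.87) and the target ID4 (-1.81) were lower. ID1, a direct target of BMP signalling, had 2223, 2320.0 and 9459 normalised reads in mCherry light and 11387, 12580.0 and 14523 in GFP light, so mCherry light library c lay nearer to the GFP light range than libraries a and b did. Its log2 difference was -1.80 (adjusted p = 0.000855) and -2.49 without that library. Of 17 NODAL and TGF-beta genes, 7 were higher and 7 lower. The extracellular inhibitors went opposite ways, CER1 (4.64) higher and LEFTY1 and LEFTY2 lower, and the co-receptor TDGF1 (-2.66) was lower. Of 23 FGF and ERK genes, 9 were higher and 7 lower, FGF17 (9.70) and FGF8 (1.94) on one side, and FGF19 (-3.60) and FGF2 (-2.13) on the other. Of 20 Notch genes, 9 were higher and 7 lower. Here the Delta ligands DLL3 (7.25) and DLL1 (5.88) were higher and the Jagged ligands JAG1 (-1.52) and JAG2 (-1.94) lower. Of 14 retinoic acid genes, 7 were higher and 7 lower, and the synthetic enzymes were exchanged: ALDH1A2 averaged 10831 ± 1072 normalised reads in mCherry light and 10.1 ± 3.24 in GFP light, whereas ALDH1A3 (-2.24) and ALDH1A1 (-3.61) were lower. Of 15 YAP and TEAD targets, 7 were higher and 6 lower, with ANKRD1 (2.21), AMOTL1 (1.20) and FRMD6 (1.09) higher and CCN2 (-3.82), CCN1 (-2.63) and AXL (-1.42) lower. CCN1, CCN2 and ANKRD1 are widely used as targets, and ANKRD1 lost its call under 1 alternative.

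Matrix and migration genes were mixed. Of 16 integrins, 5 were higher and 6 lower. ITGA5, the fibronectin receptor subunit, averaged 35391 ± 7216 normalised reads in mCherry light and 3045 ± 181 in GFP light. ITGA9 (3.27) and the collagen and laminin receptor subunit ITGA1 (1.67) were higher as well, whereas the laminin receptor subunits ITGA7 (-1.35), ITGA3 (-1.26) and ITGB4 (-3.69) and the collagen receptor subunit ITGA2 (-5.09) were lower. Of 20 laminin and basement membrane genes, 9 were higher and 9 lower. The laminin chain gene LAMB1 (1.02), NID2 (3.04), which encodes a nidogen, and the collagen gene COL18A1 (1.13) were higher, and the laminin chain genes LAMA4 (-5.07), LAMA3 (-3.96) and LAMB3 (-2.85) lower. Of 17 matrix proteases and inhibitors, 9 were higher and 5 lower, MMP14 (2.72) and MMP2 (2.51) above and MMP9 (-3.94) and MMP17 (-3.98) below. Among 19 actin and migration genes, 8 were higher and 9 lower, the GTPase gene RHOB (1.99) and the bundling protein FSCN1 (1.52) above and the GTPase genes RND1 (-2.80) and RHOV (-2.47) below.

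**Figure D3:**
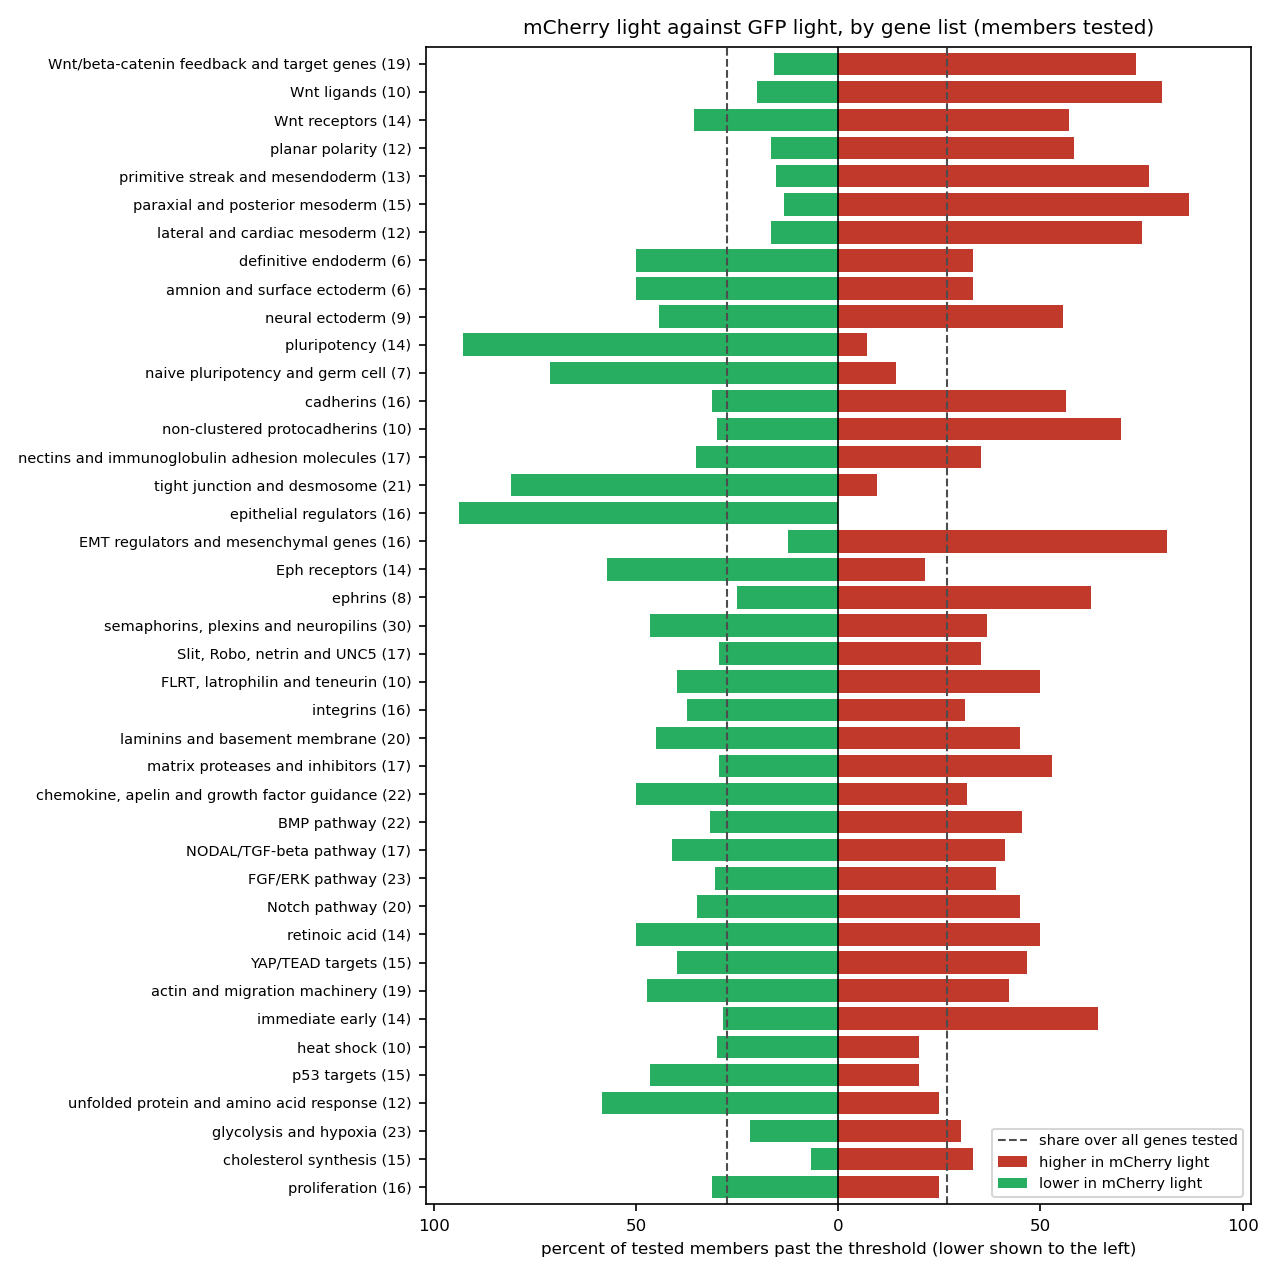
Percent of the tested members of each of 41 gene lists that were higher (right, red) or lower (left, green) in mCherry light, with the number tested in brackets and dashed lines at the shares over all genes, 26.8% higher and 27.6% lower. Wnt feedback genes (14 higher of 19), streak genes (10 of 13), mesoderm genes and EMT genes (13 of 16) extend to the right, and pluripotency genes (13 lower of 14) and epithelial regulators (15 lower of 16) to the left.

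The chart of 41 lists shows how the roles fall on the sides of the comparison. Cadherins (9 higher and 5 lower of 16), semaphorins (11 and 14 of 30) and laminins (9 and 9 of 20) reach past both dashed lines. Cholesterol synthesis genes, with 5 higher and 1 lower of 15, lie near the shares over all genes on one side and below them on the other. Members of a list were not chosen at random, and no test over a list is given.

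Genes outside these lists were among the largest differences. GRAP2, an adaptor protein of immune cell signalling, had 9863, 11013 and 12079 normalised reads in mCherry light and 3.76, 0.94 and 8.08 in GFP light. KCNJ5, an inward rectifier potassium channel, had 4656, 5025 and 4951 in mCherry light and 3.01, 0 and 1.35 in GFP light. RSPO3, a secreted protein that strengthens Wnt signalling through LGR receptors, had 13608, 11676 and 11581 in mCherry light and 0.75, 11.3 and 2.69 in GFP light. These genes and GREB1L (11.17) differed by more than 11 on the log2 scale, with all mCherry light libraries above all GFP light libraries. On the other side, IDO1, an enzyme that breaks down tryptophan, held 3 reads over the mCherry light libraries and 677, 741 and 687 normalised reads in GFP light. CALB1, the calcium-binding protein calbindin, averaged 4.24 ± 3.36 normalised reads in mCherry light and 1074 ± 151 in GFP light. TRIML2 (-7.77), BICDL2 (-7.93), SLC27A2 (-7.77) and TRBC2 (-7.65) were lower with no overlap. NANOGP1 (-7.92) is a near copy of NANOG, so its reads are uncertain.

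In the dark, few genes passed the threshold between the same populations. Of 19436 genes, 88 (0.453%) were higher and 67 (0.345%) lower in mCherry dark than in GFP dark, 0.797% in all. Of these 155 genes, 111 were called in the same direction under light, 25 in the opposite direction and 19 were not called. Of the 5297 genes at least 2-fold apart under light, 77 were also called in the dark in the same direction and 20 in the opposite direction. The difference between the lit and the dark contrast was itself called for 3798 genes higher (19.5%) and 4082 lower (21.0%), and 4543 (85.8%) of the 5297 were among them in the same direction. Both contrasts hold the same lit values, so this overlap is largely built in. No member of the Wnt feedback, streak, mesoderm, pluripotency, cadherin, tight junction or epithelial lists was called in the dark by limma. With 0.797% of all genes called, few calls would be seen in lists of this size, so their absence says little about the members. The ephrin and nectin lists each had 1 gene higher in mCherry dark, and the neural and glycolysis lists each had 1 lower. Across all genes 1098 had an unadjusted p under 0.05 in the dark, and DESeq2 called 172 higher and 119 lower. A small set of genes differed between the populations with and without light, by less than 2-fold between the conditions in 84 genes. THUMPD3, a tRNA-modifying enzyme outside these 84, had 7.01, 8.09 and 1.5 normalised reads in mCherry light and 1553, 1401 and 1319 in GFP light. It averaged 16.7 in mCherry dark and 1451 in GFP dark. IRAK4, a kinase of innate immune signalling, had 216, 141 and 120.4 normalised reads in mCherry light and none in GFP light, and averaged 160.1 in mCherry dark with none in GFP dark. PUS7L, an RNA-modifying enzyme whose gene adjoins IRAK4 on the opposite strand of chromosome 12, had 444, 242 and 241 in mCherry light and none in GFP light. LINC00664 had 3 reads over the mCherry light libraries and averaged 309.9 ± 60.7 normalised reads in GFP light. The zinc-finger genes ZNF736 (7.19), ZNF582 (4.26), ZNF572 (4.81) and ZSCAN5A (2.70) were higher and ZNF502 (-6.81) lower in mCherry light, with dark differences of 7.99, 5.11, 4.58, 2.17 and -6.60 for the same genes in this order. CCDC169 (-5.27), NALCN-AS1 (-3.67), KBTBD12 (-3.40) and MAS1 (-2.30) were also lower both ways. NALCN-AS1 is an antisense gene and uncertain, since it is not known whether counting used the strand.

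Engineered and wild-type cells grown apart under the same light were the next comparison. Of the 5297 genes at least 2-fold apart in the lit co-culture, 4717 (89.1%) were called in the same direction between illuminated Cry2 and wt monocultures and 11 in the opposite direction. For comparison, 28.2% of 20322 genes were higher and 29.8% lower in Cry2 than in wt monocultures, 12.6% and 15.8% by at least 2-fold as well. The co-culture difference minus the monoculture difference was called for 462 genes above 0 (2.27%) and 599 below 0 (2.95%). Of 13 streak genes, 0 were above and 8 below, with a median of -1.53. Of 22 BMP genes, 1 was above and 12 below, with a median of -1.12. Of 19 Wnt feedback genes, 1 was above and 5 below. Of 16 epithelial regulators and of 14 Eph receptors, 0 were above and 0 below. Leaving out mCherry light library a raised the 2 counts to 2437 and 2041, and leaving out wt light replicate 2 lowered them to 257 and 348.

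**Figure D4:**
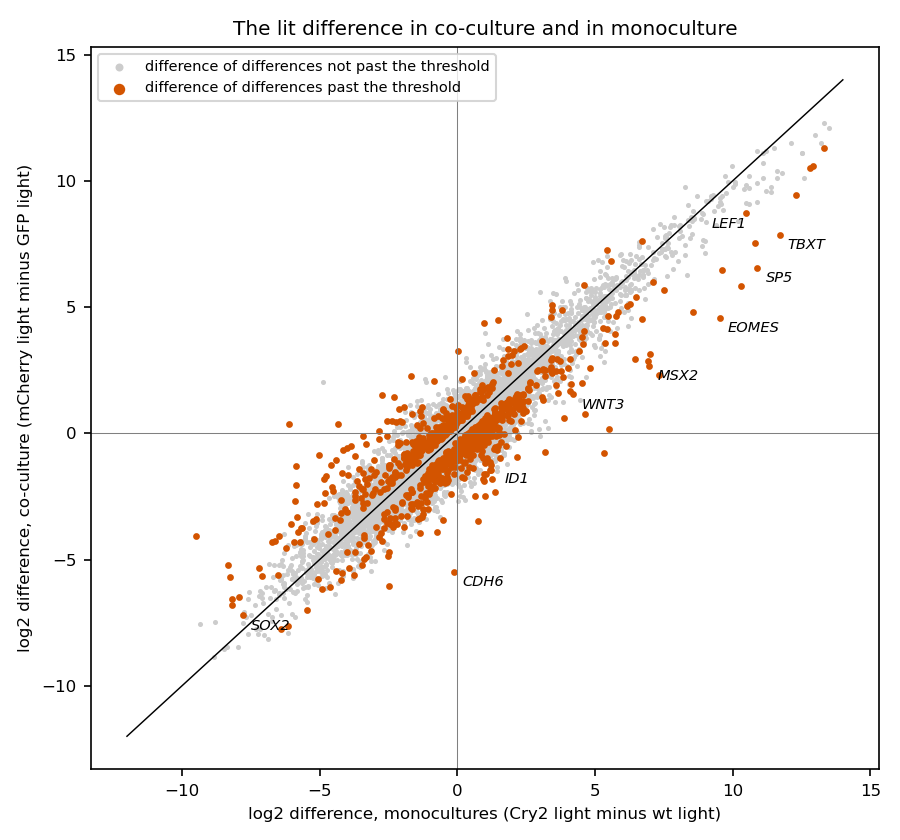
Log2 difference between mCherry light and GFP light in co-culture (vertical) against that between Cry2 light and wt light in monoculture (horizontal), 1 point per gene, with the line of equal differences. Orange points passed the threshold for the difference between the 2 contrasts, EOMES, TBXT, SP5 and MSX2 lying below the line, and ID1 at -1.80 in co-culture and 1.26 in monoculture.

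For several genes below the line, the wild-type neighbours in lit co-culture had higher levels than wild-type cells in the dark or in monoculture. EOMES in GFP light, at 253, 271 and 207 normalised reads, compares with 7.08, 7.18 and 3.58 in GFP dark and 6.89, 7.61 and 3.20 in illuminated wt monocultures. WNT3 had 1098, 1146 and 947 normalised reads in GFP light, against 142, 125 and 145 in GFP dark and 131, 195 and 126 in wt light. TBXT had 108, 114 and 135 in GFP light, 6.20, 1.80 and 5.72 in GFP dark and 10.7, 2.86 and 11.99 in wt light. All 3 GFP light libraries were above all 6 of the other wild-type libraries in each gene. High GFP light or low wt light values put a gene below the line, so part of this gap follows from the choice. The share of all genes with such a gap was not computed. The difference between the 2 contrasts was -4.96 for EOMES (adjusted p = 0.000135), -2.66 for WNT3 (adjusted p = 3.06e-09) and -3.86 for TBXT (adjusted p = 0.000427). SP5 had 119, 143 and 160.3 normalised reads in GFP light and 0.89, 5.39 and 5.01 in GFP dark. MSX2, a homeobox target of BMP and Wnt signals, had 195, 176 and 162 in GFP light and 7.97, 7.18 and 12.9 in GFP dark. ID1 had 11387, 12580.0 and 14523 in GFP light and 1779.8, 1490.4 and 1419.6 in GFP dark, and NODAL had 1412, 1571 and 1602 in GFP light and 533, 534 and 514 in GFP dark. Again no GFP light library overlapped the GFP dark libraries, and the share of all genes for which this holds was not computed. The contrast difference was -4.35 for SP5 (adjusted p = 0.0183, not past the threshold without mCherry light library c, where it was -4.07), -4.30 for MSX2 (adjusted p = 0.00044), -3.07 for ID1 (adjusted p = 4.63e-05) and -1.53 for NODAL (adjusted p = 0.0213). ID1 and FGF4 took opposite directions, their lit differences being -1.80 and -1.46 in co-culture against 1.26 and 1.19 in monoculture. They were 2 of 7 genes that were opposite by at least 2-fold in both. Among cadherins, CDH6 had 444, 401 and 352 normalised reads in GFP light, 31.0, 32.3 and 21.5 in GFP dark and 38.3, 15.2 and 24.8 in wt light (contrast difference -5.38, adjusted p = 2.45e-07).

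**Figure D5:**
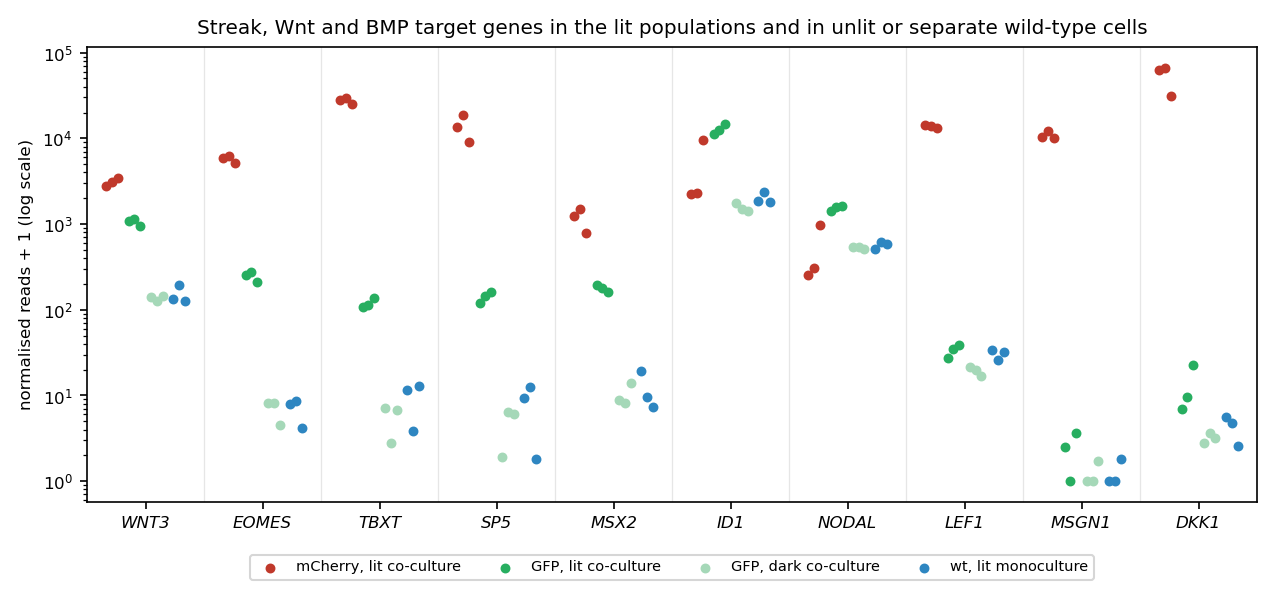
Normalised reads + 1 (log scale) of 10 genes in each library of mCherry light, GFP light, GFP dark and illuminated wt monoculture. WNT3, EOMES, TBXT, SP5 and MSX2 in GFP light lie between mCherry light and the other wild-type groups, and ID1 and NODAL are highest in GFP light. LEF1 in GFP light overlaps illuminated wt monoculture, and MSGN1 has few reads in each wild-type group.

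The plot of 10 genes in the 4 populations also holds LEF1, which did not show this pattern against wt light. LEF1 had 26.3, 33.9 and 37.7 normalised reads in GFP light and 32.9, 24.8 and 31.2 in wt light. Its GFP light mean did lie above the dark means. MSGN1 averaged 1.40 in GFP light and 0.266 in wt light, too few reads to be read either way. AXIN2, which is not plotted, averaged 538 in GFP light and 519 in wt light, and its GFP dark level is not compared here. Expressed as a share of the mCherry light mean, the GFP light mean was 34.2% for WNT3, 15.1% for MSX2, 4.21% for EOMES, 1.02% for SP5, 0.428% for TBXT and 0.233% for MIXL1. The shares were 0.0461% for APLNR, 0.0467% for GATA6, 0.0223% for DKK1 and 0.0129% for MSGN1, beside the 0.0511% of the puromycin gene of the engineered cells. The part of engineered cells in the GFP gate in these levels was not tested. Light against dark within GFP cells was not tested here, and the co-culture and monoculture groups differ in sorting as well as in their neighbours, so those factors cannot be told apart.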

How the data were processed

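Poly-adenylated RNA of H9 cells was prepared with a stranded TruSeq mRNA kit, per the labels' protocols, from 8 groups of 3 biological replicates, each pooled from several wells. P-values therefore measure the spread between such replicates, pooled over all groups of a fit, so those of the lit contrast also draw on the dark libraries. With only the 6 lit libraries, 4362 genes were higher and 4176 lower in mCherry light. The submitters' processing notes name FastQC, cutadapt, Bowtie2, STAR, HTSeq, DESeq and the build GRCh38, with no versions, whereas the header of the deposited sample table names hg19 with 4 added construct genes. This conflict was not resolved, so gene positions come from GENCODE 29 on GRCh38 by Ensembl identifier. No source says whether counting used the strand, so genes that overlap or lie antisense to others are uncertain.

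The authors deposited a normalised signal per gene, a read count divided by 1 size factor per library. In every library 100.0% of values came out as whole reads within 0.01 once multiplied by that factor. The deposited sample table served to find the group of each column, and its quality values were not used. Assigned reads were 31807414 to 55593196 over the 6 illuminated sorted libraries and 44162262 to 56639833 over the unlit sorted ones. Columns of the sorted groups carry no replicate number, so their libraries are named a, b and c. Monoculture groups follow the sample titles, which the genotype tags contradict and the construct reads follow.

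Of 28301 features, 4 belong to constructs and were left out of gene tests, and 27908 of 28297 Ensembl identifiers matched a name. The test was limma 3.58.1 (R 4.3.3) with a trend on log2(value + 1), for genes with at least 10 in at least 3 libraries, with Benjamini-Hochberg adjustment and a threshold of 0.05. The lit, dark and lit-minus-dark contrasts came from 1 fit of the 12 sorted libraries, and the contrasts with monocultures from 1 fit of all 24. Log2 differences refer to log2(value + 1), which understates the change of low genes, whereas folds are ratios of group means with a floor of 3 reads over a group at 0. Scripts were tested on simulated data with 200 changed genes a set. Alternatives were pseudocounts of 0.5 and 8, no filter or at least 50, TMM scaling, edgeR 4.0.16 and DESeq2 1.42.0 on the recovered reads, only the 6 lit libraries, all 24 libraries, and leaving out each library.

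Named genes were the 12 with the largest differences in each direction that had a name, a mean of at least 50 and no overlap, 12 fixed markers with LRP6, up to 4 members a direction of each list with those that did not pass, the 8 largest of each difference of contrasts, the 6 largest in each direction that were shared by light and dark, and the 10 foremost ligand and receptor pairs. Some genes that this rule names are not reported here. Named outside that rule, after their values were seen, were NKD1, ZNRF3, WNT3, FGF8, TBX6, CDX1, CDX2, HES7, LIN28A, KRT8, KRT19, CLDN7, TJP1, JUP, DSG2, SNAI1, TWIST1, COL1A2 and FN1. The members and lists were chosen with earlier results of these data known.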

Additional observations from a re-analysis of the deposited data

Results flagged for a closer look

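Each value below was singled out because a test of the difference between 2 contrasts passed the threshold in limma.

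The lit difference (mCherry light minus GFP light) exceeded the dark difference (mCherry dark minus GFP dark) for 3798 genes and fell short of it for 4082. Among the largest positive log2 values of this kind were MSGN1 (12.29), RSPO3 (12.09), DKK1 (11.41), GREB1L (11.33), EVX1 (11.32), HOXB4 (11.14) and APLNR (10.95). Their means in the dark groups were at most 21.8 normalised reads. The largest negative values were those of FOXD3 (-8.96), IDO1 (-8.91), CLDN3 (-8.14), NANOGP1 (-8.08), LEFTY2 (-7.92), TRIML2 (-7.89), CFAP95 (-7.74) and CALB1 (-7.72).

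The lit difference in co-culture exceeded that between illuminated Cry2 and wt monocultures for 462 genes and fell short of it for 599. On the positive side were IL17C (6.50), NPTX1 (5.42), BRINP2 (4.70), CUZD1 (4.56), FOXJ1 (4.18), BNC1 (3.96), ATP10B (3.80) and CLC (3.19). For IL17C, an interleukin gene, the mean was 1.60 normalised reads in mCherry light, 1.13 in GFP light, 1.21 in Cry2 light and 116 in wt light. NPTX1, the neuronal pentraxin gene, averaged 1.17 in mCherry light, 29.1 in GFP light, 0.27 in Cry2 light and 899 in wt light. FOXJ1, a factor of motile cilia, averaged 36.9 in mCherry light, 67.3 in GFP light, 13.2 in Cry2 light and 467 in wt light. In these 3 genes the wt light mean stood above the other 3 groups. BNC1, the basonuclin gene, averaged 21.3 in mCherry light, 4.21 in GFP light, 16.0 in Cry2 light and 53.2 in wt light. There too the wt light mean was the highest.

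On the negative side were LINC02593 (-6.11), CDH6 (-5.38), SAMD11 (-5.36), PCAT14 (-5.01), EOMES (-4.96), HAGLR (-4.44), SP5 (-4.35) and MSX2 (-4.30). SAMD11 averaged 213 normalised reads in mCherry light, 184 in GFP light, 215 in Cry2 light and 4.18 in wt light, so that the GFP light mean was near that of the engineered cells. PCAT14 averaged 1173 in mCherry light, 242 in GFP light, 2539.9 in Cry2 light and 14.9 in wt light. HAGLR, an RNA antisense to HOXD genes and uncertain without the strand setting, averaged 1692 in mCherry light, 29.4 in GFP light, 1776 in Cry2 light and 0.635 in wt light.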

How the results depend on the processing

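The lit counts stayed within 1.5 times of the values in the text under each alternative run, at 4362 to 5547 genes higher and 4176 to 5872 lower. Of 6918 values of named genes under alternatives, 6754 kept their direction and side of the threshold, 75 lost the threshold, 89 gained it and 0 changed direction. In all, 23 calls were lost under some alternative, that of WNT2B under 10, IER2 under 8 and CDX4 and CYP26A1 under 6 each. DESeq2 on the recovered reads called 172 genes higher and 119 lower in the dark, and 880 genes above 0 between co-culture and monoculture. The dark counts were 51 to 60 higher and 39 to 49 lower when 1 library was left out, where fewer samples enter the fit. The co-culture against monoculture counts were 257 to 2437 above 0 and 337 to 2041 below 0 when 1 library was left out. They were 257 and 348 without wt light replicate 2, 286 and 337 without Cry2 light replicate 1, 298 and 398 without GFP light library a, 295 and 388 without GFP light library b and 262 and 388 without mCherry light library c, and 380 were below 0 without Cry2 light replicate 2. They were 2437 and 2041 without mCherry light library a. The cause was not tested. The NPTX1 call was lost with edgeR, and those of ATP10B and CLC with edgeR and DESeq2. No paired analysis was possible because the columns of the sorted groups carry no replicate number. Genes with 1 to 3 reads in a group have no fold here, and depth limits what can be said of them.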

Other observations

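Stress, metabolic and cell cycle genes, which are not described above, differed in both directions between the illuminated populations. Of 14 immediate early genes, 9 were higher and 4 lower in mCherry light, with a median log2 difference of 0.87 beside -0.01 over all genes. EGR3, a zinc-finger factor induced by growth signals, averaged 376 ± 207 normalised reads in mCherry light and 2.83 ± 2.44 in GFP light (SD, n = 3 each). EGR1 (3.24), IER3 (2.96) and JUNB (2.41) were higher and FOSL1 (-2.34) lower. Of 10 heat shock genes, 2 were higher and 3 lower, none by 2-fold, and of 15 p53 targets, 3 were higher and 7 lower. CDKN1A, a cell cycle inhibitor and p53 target, did not pass (-0.11), while BTG2 (2.20) was higher and PHLDA3 (-1.57) lower. Of 12 genes of the unfolded protein and amino acid response, 3 were higher and 7 lower. CHAC1 (-2.26), a glutathione-degrading enzyme, SLC7A11 (-1.78), a cystine transporter, and ASNS (-1.19), asparagine synthetase, were among the lower ones.

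Of 23 glycolysis and hypoxia genes, 7 were higher and 5 lower. PKM (1.53), a pyruvate kinase, and BNIP3 (1.33), a mitochondrial protein induced by low oxygen, stood above. ADM, the adrenomedullin gene, was 56.6-fold lower, with 41.2, 55.8 and 39.1 normalised reads in mCherry light and 2526, 2805 and 2378 in GFP light. VEGFA (-1.62), another target of low oxygen, was lower too. PDK1, a kinase that limits pyruvate use, took opposite directions, with a log2 difference of 1.30 between mCherry light and GFP light and -0.57 between mCherry dark and GFP dark. Of 15 cholesterol synthesis genes, 5 were higher and 1 lower, none by 2-fold. Of 16 proliferation genes, 4 were higher and 5 lower. CCND2 (-1.24), a cyclin of the G1 phase, was the one that differed by 2-fold, while MKI67 (0.20) and TOP2A (-0.07) did not pass the threshold. These shares can be read beside 26.8% higher and 27.6% lower over all genes.

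Genes that were opposite by at least 2-fold in co-culture and monoculture numbered 7. Besides ID1 and FGF4 they were GLIPR1L1 (-1.60 in co-culture, 1.04 in monoculture), RP11-655M14.13 (-1.45 in co-culture, 1.22 in monoculture), CTNS-AS1 (-1.25 in co-culture, 1.21 in monoculture), PAX5 (-1.01 in co-culture, 1.02 in monoculture) and BNC1 (2.27 in co-culture, -1.70 in monoculture). CTNS-AS1 is an antisense gene and uncertain without the strand setting.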
